A study of Mus musculus with 6 samples.

Results

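The genes described here are the 10 that coat the lipid droplet, release its fatty acids or restrain that release: Plin2, Plin3 and Cidec on the droplet surface, the lipases Pnpla2, Lipe, Mgll and Abhd6, the lipase coactivator Abhd5, and the lipase inhibitors G0s2 and Hilpda. They were taken by name from a list drawn up with earlier results of these data known, so the counts below are a description of named genes and not of an unselected set. All 10 were found among the 55416 genes of the table and passed the filter on low values. RNA was sequenced from organoids grown out of small intestine crypts (duodenum and jejunum) of 3 C57BL/6 mice whose genotype is given as WT. Organoids of each mouse received either 50 µg/ml of low-density lipoprotein (LDL), a lipoprotein that carries cholesterol in blood, or PBS, the buffer alone, for 5 days, which gives 3 LDL and 3 PBS libraries in mouse pairs. The description of both libraries from mouse 3 begins with other letters than those of mice 1 and 2, although the genotype label of all 6 reads WT, so the calls are also given without that mouse. Organoids hold several epithelial cell types and no blood supply, and in such bulk RNA a change in the number of cells of one type and a change in RNA per cell cannot be told apart.

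A lipid droplet is a core of triglyceride and cholesteryl ester under a phospholipid monolayer studded with proteins. Perilipins such as Plin2 and Plin3 cover that surface and limit the access of lipases, whereas Cidec sits where droplets touch and lets lipid pass from the smaller to the larger. Lipolysis runs in steps: Pnpla2 (adipose triglyceride lipase) removes the first fatty acid from triglyceride with the help of Abhd5, Lipe (hormone-sensitive lipase) acts mainly on diacylglycerol, and Mgll and Abhd6 split monoacylglycerol. In the absorptive cells of the intestine, droplets store dietary fat for a time before it is exported or burned.

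The lipases of the set share a catalytic serine that lies between glycines, and the reference sequence shows where. The coding sequence of each canonical transcript (GENCODE, GRCm39) was searched for a glycine codon, any codon, a serine or asparagine codon, any codon and a glycine codon. The 15 bases found are shown because they separate the enzymes from the coactivator, with the middle codon in capitals.
Pnpla2: ggagccTCGgcaggg
Lipe: ggggacAGTgcaggt
Mgll: ggccacTCCatgggc
Abhd6: ggcaccTCCatgggt
Abhd5: ggacacAACctggga
The capitals spell serine at residue 47 of 500 in Pnpla2, residue 736 of 1072 in Lipe, residue 122 of 303 in Mgll and residue 148 of 336 in Abhd6. In Abhd5, a relative of Abhd6 that is not itself a triglyceride lipase, the same place (residue 155 of 351) holds an asparagine codon. Mgll had a further match at residue 83 (gggcagAGTgaggga), which is not the known catalytic serine. Plin2, Plin3, Cidec, G0s2 (103 residues) and Hilpda (64 residues) held no match.

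The promoters of 3 of the 4 genes that passed the test without the mouse in the model, Plin2, Mgll and Abhd6, are shown because these genes were higher with LDL together. Each is the 250 bases before the start of the canonical transcript in GRCm39, on the strand of the gene, at chr4:86588460-86588709 (minus) for Plin2, chr6:88701144-88701393 (plus) for Mgll and chr14:14467052-14467301 (minus) for Abhd6.
Plin2 promoter: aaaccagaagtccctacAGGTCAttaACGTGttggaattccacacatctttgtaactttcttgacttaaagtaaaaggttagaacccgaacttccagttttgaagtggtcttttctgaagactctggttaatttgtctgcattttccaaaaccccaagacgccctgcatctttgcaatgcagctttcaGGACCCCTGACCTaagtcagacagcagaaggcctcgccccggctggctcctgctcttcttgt
Mgll promoter: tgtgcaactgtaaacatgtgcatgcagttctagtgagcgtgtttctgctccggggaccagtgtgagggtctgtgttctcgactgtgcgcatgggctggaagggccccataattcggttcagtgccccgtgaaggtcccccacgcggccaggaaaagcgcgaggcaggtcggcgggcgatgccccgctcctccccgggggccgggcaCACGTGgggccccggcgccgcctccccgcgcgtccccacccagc
Abhd6 promoter: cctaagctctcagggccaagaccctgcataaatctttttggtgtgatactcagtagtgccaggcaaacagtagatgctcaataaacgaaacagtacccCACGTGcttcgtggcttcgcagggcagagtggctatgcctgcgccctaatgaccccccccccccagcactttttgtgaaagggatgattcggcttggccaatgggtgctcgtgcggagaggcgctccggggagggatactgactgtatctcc
Capitals mark matches, on either strand, to AGGTCA (the half-site of nuclear receptors such as the PPARs), to its direct repeat spaced by 1 base with up to 2 mismatches, and to ACGTG (the core of the hypoxia response element, also part of the E-box CACGTG). The Plin2 promoter held AGGTCA at 233 and 55 bases before the start, a direct repeat with 2 mismatches at 62 bases that contains the nearer half-site, and ACGTG at 224 bases. Mgll and Abhd6 each held the palindrome CACGTG, which matches ACGTG on both strands, from 44 and 152 bases before the start. The promoter of Cidec, the fourth of these genes, is not reported here, so the 3 shown do not stand for all 4. Of the genes not called without the block, Lipe held a direct repeat with 2 mismatches at 112 bases and Abhd5 held AGGTCA at 9 bases, while Plin3, Pnpla2, G0s2 and Hilpda held none. Over 18372 promoters of the same length, 12.1% held AGGTCA, 2.73% the direct repeat and 18.2% ACGTG, so each match is a description of the sequence and not a site shown to be bound.

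Values below are normalized counts, which are read counts divided by a size factor of the library. The 6 libraries held between 22061545 and 31073360 reads assigned to genes. The LDL library of mouse 1 stood apart in that 35781 genes had a read, against 29285 to 32751 in the other 5, and its most abundant RNA was the ribosomal Rn18s-rs5 with 7.62% of reads. Without that library, the same 4 genes passed the test. Epithelial markers were abundant in every library (86029 to 129069 normalized counts summed over 7 genes), and Adipoq, which defines adipocytes, had no read in any library, which allows up to 3 reads in each.

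LDL was followed by higher RNA of 4 of the 10 genes and lower RNA of none (limma on log2(normalized count + 1), Benjamini-Hochberg adjusted p under 0.05 over 18459 genes and a change over 1.5-fold, which is what called means below). Those 4 were Mgll, Abhd6, Cidec and Plin2. Over all genes tested, 0.878% were called higher and 0.395% lower. With the mouse as a block, which compares the organoids of each mouse with each other, 5 of the 10 were called higher, Lipe being the fifth, and none lower, beside 5.68% and 3.46% of all genes. At an unadjusted p under 0.05, 6 genes were higher and 0 lower, beside 9.96% and 9.73% of all genes. Without the block, edgeR and DESeq2 each called 4 of the 10 higher and 0 lower, where edgeR called 1.01% and 0.379% of all genes and DESeq2 4.58% and 1.89%. With the block each called 5 and 0, where edgeR called 6.34% and 3.19% of all genes and DESeq2 5.33% and 2.78%. The LDL values lay above all PBS values in 6 of the 10 genes and below them in none, beside 11.9% and 12.3% of all genes. In 7 genes LDL was higher in every mouse and in 1, Plin3, it was lower in every mouse, beside 24.2% and 26.8% of all genes. The median log2 fold change of the 10 was 0.59, and that of all genes tested was -0.02.

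**Figure D1:**
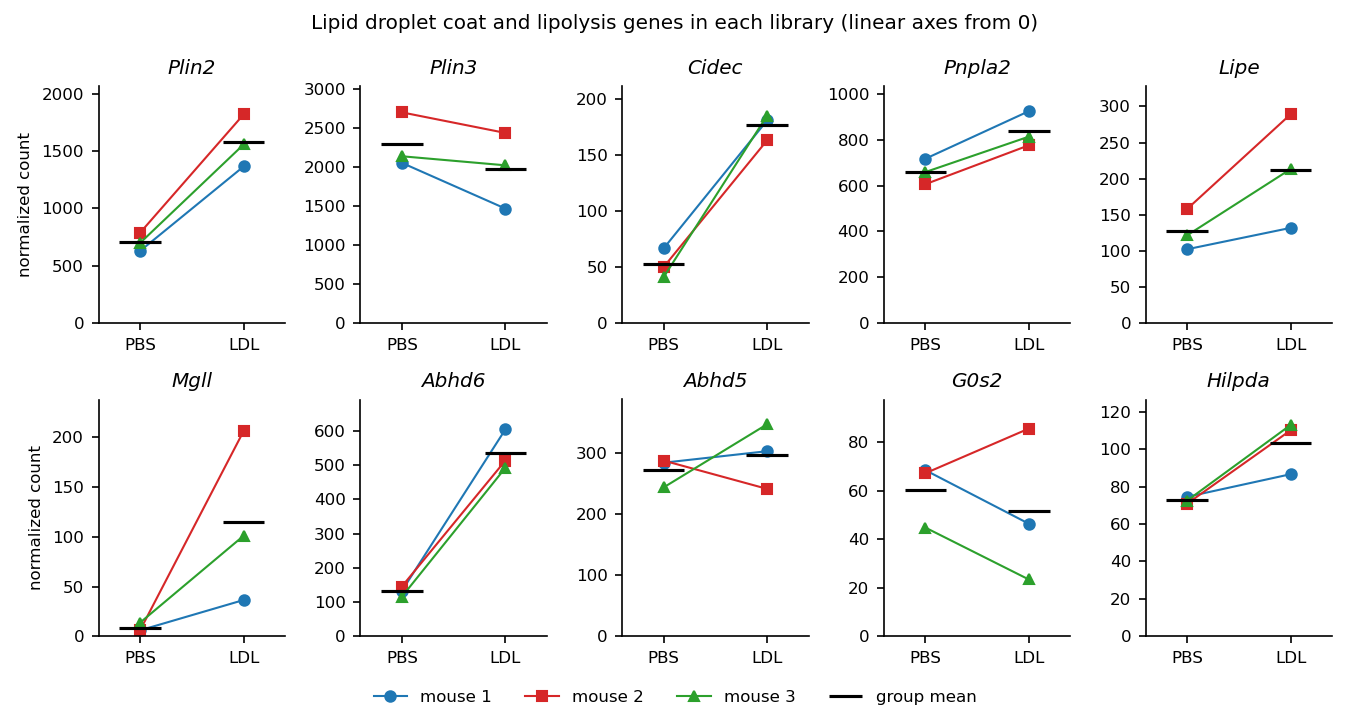
Normalized counts (vertical axes, linear from 0) of the 10 genes in PBS and LDL organoids. Points joined by a line are the libraries of 1 mouse and black bars are group means of 3. The lines of Plin2, Cidec, Mgll and Abhd6 all climb, from group means of 705, 52.3, 8.73 and 131 to 1583, 176, 115 and 536, whereas those of Abhd5 and G0s2 run in both directions.

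Positions below are whole genes in GRCm39. Of the coat genes, Plin2 (ENSMUSG00000028494, chr4:86565912-86588459, minus strand), the perilipin that most cells place on stored lipid and whose protein is stable only on a droplet, rose in all 3 mice. Its normalized counts with PBS were 629, 788 and 699 in mice 1 to 3, and with LDL they were 1367, 1822 and 1559. All LDL values lay above all PBS values, and the mice kept their order, mouse 2 being highest and mouse 1 lowest under both treatments. The log2 fold change was 1.16 ± 0.13 (SE, n = 3 mice, limma adjusted p = 0.0113), and the ratio of LDL to PBS within a mouse was 2.17, 2.31 and 2.23. With the mouse as a block the adjusted p was 0.00014. Leaving out the PBS library of mouse 1, the PBS library of mouse 3 or the LDL library of mouse 3 ended the call, with limma adjusted p of 0.0716, 0.0725 and 0.0873, while the log2 fold change stayed between 1.08 and 1.17.

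Plin3 (ENSMUSG00000024197, chr17:56584218-56599873, minus strand), a perilipin that is soluble in the cytosol and moves onto new droplets, did not follow Plin2. Its counts were 2053, 2700.2 and 2137 with PBS and 1466, 2436 and 2021 with LDL. The groups overlapped, although each mouse was lower with LDL, by ratios of 0.714, 0.902 and 0.946. The log2 fold change of -0.24 ± 0.19 (SE) had a 95% interval from -0.68 to 0.21 (limma adjusted p = 0.551, and 0.139 with the block). Per kilobase of canonical transcript, the ratio of Plin2 to Plin3 was 0.590, 0.562 and 0.630 in the PBS organoids of mice 1 to 3 and 1.80, 1.44 and 1.49 in their LDL organoids. Within a mouse the ratio with LDL was between 2.36 and 3.04 times that with PBS, and the groups did not overlap.

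Cidec (ENSMUSG00000030278, chr6:113400691-113412721, minus strand), which is best known from the large droplets of fat cells and from liver under fat load, was low with PBS and higher with LDL. Its counts were 66.4, 49.7 and 40.7 with PBS and 181, 163 and 185 with LDL, from 40 to 65 and from 148 to 221 reads per library. All LDL values lay above all PBS values. On the log2 scale the change was 1.76 ± 0.21 (SE, n = 3 mice, limma adjusted p = 0.0136, and 0.00120 with the block), and the ratio within mice 1 to 3 was 2.72, 3.27 and 4.54. Without the PBS library of mouse 2, the PBS library of mouse 3 or the LDL library of mouse 3, the adjusted p was 0.0592, 0.0606 and 0.104. Relative to Plin2 per kilobase, Cidec was between 0.0418 and 0.0756 with PBS and between 0.0640 and 0.0946 with LDL, and these ranges overlapped.

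**Figure D2:**
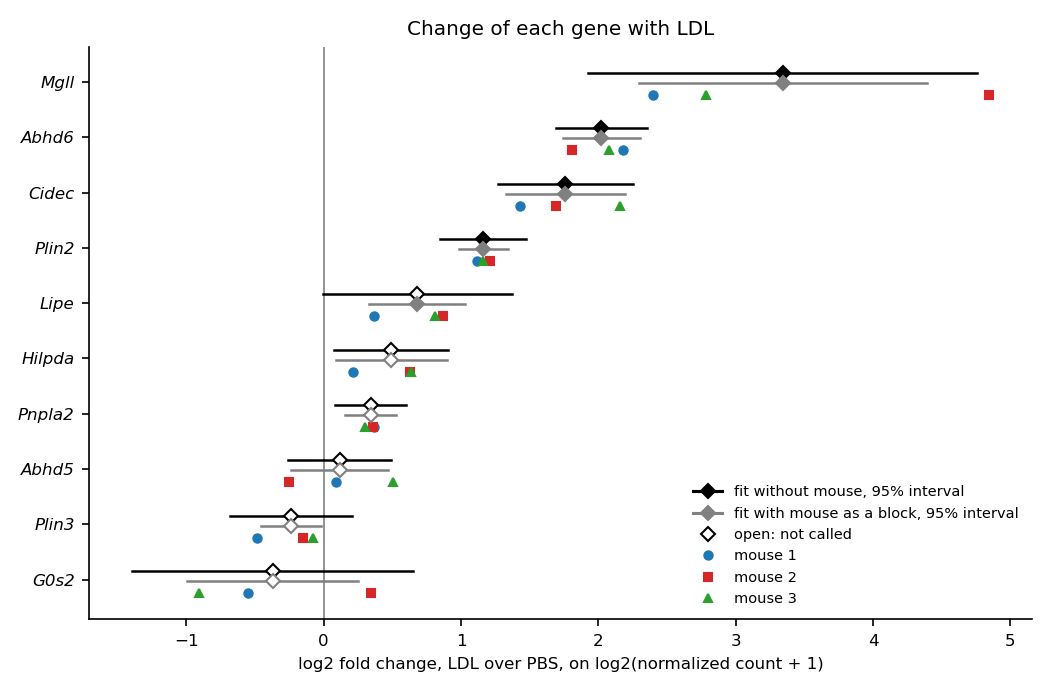
Log2 fold change of LDL over PBS (horizontal axis) for each gene. Black diamonds and lines are the limma estimates and 95% intervals without the mouse, grey ones those with the mouse as a block, open diamonds are genes not called, and colored points are the single mice. Lipe is filled only with the block, and the points of Mgll spread from 2.40 to 4.85 while those of Plin2 lie between 1.12 and 1.21.

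Among the lipases, those of the last step were called without the block and those of the early steps were not, a difference that was not itself tested. Pnpla2 (ENSMUSG00000025509, chr7:141034404-141040656, plus strand), which opens triglyceride breakdown, had counts of 718, 606 and 659 with PBS and 926, 777 and 814 with LDL. Each LDL value exceeded every PBS value, and the ratio within a mouse was between 1.24 and 1.29, the narrowest spread of the 10 genes on the log2 scale (0.063 between the lowest and highest mouse). A log2 fold change of 0.34 ± 0.11 (SE) had a limma adjusted p of 0.152 without the block and 0.0272 with it. Without the block it failed the threshold on p, and with the block it passed on p and was not called because the change was under 1.5-fold. Lipe (ENSMUSG00000003123, chr7:25078880-25098135, minus strand) had counts of 102, 158 and 121 with PBS and 132, 289 and 213 with LDL, so that the LDL value of mouse 1 fell inside the PBS range. Its log2 fold change was 0.68 ± 0.30 (SE, limma adjusted p = 0.259, 95% interval -0.01 to 1.37), and the ratios within mice 1 to 3 were 1.29, 1.83 and 1.76. With the block the adjusted p was 0.0213 and Lipe was called higher. With the block and mouse 3 left out it was 0.242. The exons of Lipe share 1326 bases with 4732471J01Rik on the opposite strand, at mean counts of 29.9 and 35.1 with PBS and LDL. Whether the counting used strand is not given in the sources used here, so reads from the shared bases cannot be assigned.

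Abhd6 (ENSMUSG00000025277, chr14:14411450-14468795, minus strand), a monoacylglycerol lipase that also acts on lysophospholipids, had the smallest adjusted p of the 10 genes in both fits. Its counts were 133, 145 and 116 with PBS and 604, 513 and 492 with LDL. The groups were far apart, the ratio within mice 1 to 3 being 4.55, 3.53 and 4.25. Its log2 fold change was 2.02 ± 0.14 (SE, n = 3 mice, limma adjusted p = 0.00137, and 0.000107 with the block). It was called in 23 of the 24 ways of processing that were run, against 20 for Plin2, 20 for Cidec, 15 for Mgll and 5 for Lipe. The exception was the fit on 2 PBS and 2 LDL libraries without mouse 3 and without the block, in which limma called none of the 18459 genes and 1272 had an unadjusted p under 0.05. In that fit the log2 fold change of Abhd6 was 1.99 and its adjusted p 0.224. Those of Plin2, Cidec and Mgll were 1.16, 1.56 and 3.62, with adjusted p of 0.489, 0.467 and 0.605. With the block and mouse 3 left out, 3 of the 10 genes (Plin2, Cidec and Abhd6) were called higher. Over all 18459 genes, that fit called 265 higher and 77 lower.

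Mgll (ENSMUSG00000033174, chr6:88652108-88805342, plus strand), the main monoacylglycerol lipase of most tissues, showed the largest change of the 10 and the least even one. Its counts with PBS were 6.12, 6.21 and 13.8, from only 6, 5 and 17 reads, and with LDL they were 36.6, 206 and 101, from 30, 227 and 121 reads. Every LDL value was above every PBS value, yet mouse 2 rose 33.2-fold, mouse 1 5.97-fold and mouse 3 7.31-fold. Its log2 fold change was 3.34 ± 0.61 (SE, limma adjusted p = 0.0484, and 0.0033 with the block), with a 95% interval from 1.93 to 4.76. The call without the block was lost when the PBS library of mouse 1, 2 or 3 (adjusted p = 0.177, 0.174 and 0.115) or the LDL library of mouse 3 (0.229) was left out. With the block and mouse 3 left out, the adjusted p was 0.0502. Gm26588, which shares 496 exon bases with Mgll on the opposite strand, had 0 to 2 reads with PBS and 5 to 16 with LDL and was not tested.

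The monoacylglycerol lipases differed in level, and whether they differed in change was not tested. Per kilobase of canonical transcript, Mgll made up 2.94%, 2.73% and 7.29% of the sum of Mgll and Abhd6 in the PBS organoids of mice 1 to 3 and 3.83%, 20.9% and 11.9% in their LDL organoids. Abhd6 was therefore the more abundant of the pair in all 6 libraries. The share was higher with LDL in each mouse, and the groups overlapped because the LDL organoids of mouse 1 were below the PBS organoids of mouse 3.

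The cofactors of Pnpla2 did not pass the test. Abhd5 (ENSMUSG00000032540, chr9:122180621-122222936, plus strand), its coactivator, had counts of 285, 288 and 244 with PBS and 304, 242 and 348 with LDL, higher in 2 mice and lower in mouse 2. Its log2 fold change was 0.12 ± 0.16 (SE), with a 95% interval from -0.26 to 0.49 (limma adjusted p = 0.748). The upper end of that interval is below the estimate for Plin2. The exons of Abhd5 share 1111 bases with A730085K08Rik on the opposite strand, which had mean counts of 4.72 with PBS and 10.4 with LDL, and shared reads cannot be assigned. G0s2 (ENSMUSG00000009633, chr1:192949563-192956177, minus strand), an inhibitor that binds Pnpla2 directly, had counts of 68.4, 67.1 and 44.8 with PBS and 46.3, 85.5 and 23.4 with LDL, and the groups overlapped. Its log2 fold change of -0.37 ± 0.44 (SE) had a 95% interval from -1.39 to 0.65 (limma adjusted p = 0.700). G0s2 shares 119 exon bases with Lamb3 on the opposite strand, a laminin gene that was itself higher with LDL (949 ± 199 against 1917 ± 112, SD, n = 3), and shared reads cannot be assigned.

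Hilpda (ENSMUSG00000043421, chr6:29272409-29276301, plus strand), the hypoxia-inducible inhibitor of Pnpla2, varied least between mice without LDL and was above that level in each mouse with it, without passing the test. Its counts were 74.5, 70.8 and 72.5 with PBS and 86.6, 110.0 and 113 with LDL. The groups did not overlap. On the log2 scale the difference was 0.49 ± 0.18 (SE, limma adjusted p = 0.186, and 0.100 with the block), with a 95% interval from 0.08 to 0.91. Set against Pnpla2 per kilobase, the coactivator and both inhibitors gave ratios that overlapped between treatments. Abhd5 to Pnpla2 was 0.266 ± 0.0351 with PBS and 0.228 ± 0.0402 with LDL, G0s2 to Pnpla2 was 0.111 ± 0.0263 and 0.0765 ± 0.0512, and Hilpda to Pnpla2 was 0.111 ± 0.00651 and 0.125 ± 0.0270 (SD, n = 3).

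**Figure D3:**
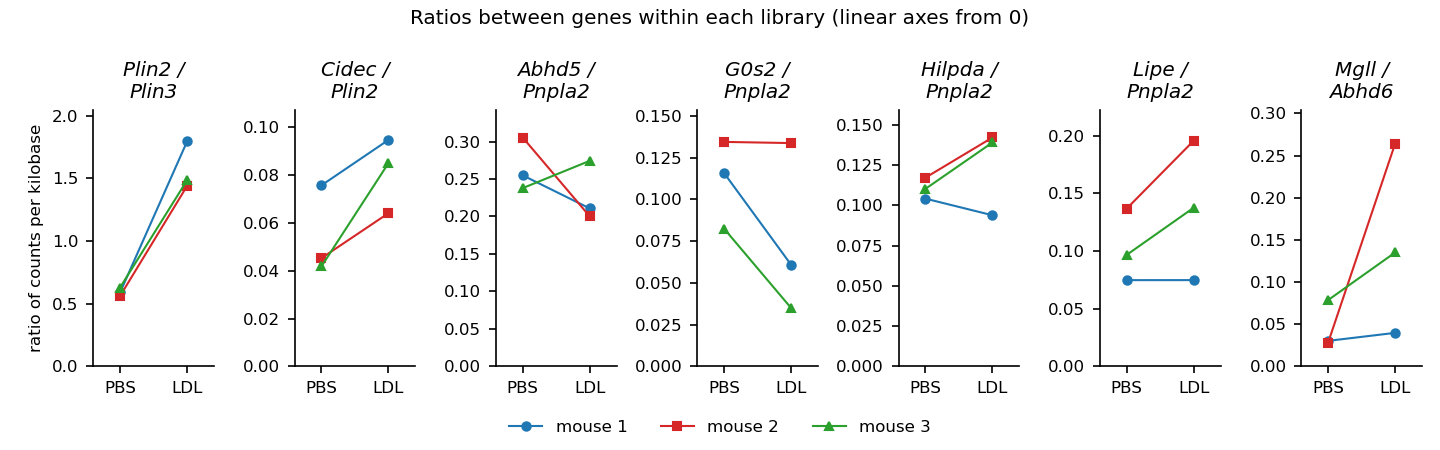
Ratios between genes of the set within each library, per kilobase of canonical transcript (vertical axes, linear from 0), with a line for each mouse. Plin2 to Plin3 is the ratio whose LDL values (1.44 to 1.80) all lie above the PBS values (0.562 to 0.630), and the other 6 ratios overlap between treatments.

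The order of the genes by level changed at the top. Per kilobase of canonical transcript with PBS, Plin3 led with 582 ± 89.1 normalized counts (SD, n = 3), followed by Plin2 with 344 ± 38.9 and Pnpla2 with 321 ± 27.0, and the ranges of Plin2 and Pnpla2 overlapped. Abhd5 (84.9 ± 7.63) and Abhd6 (54.4 ± 6.19) came next with ranges apart from their neighbours. G0s2, Hilpda and Lipe followed at 35.4, 35.3 and 32.4 with overlapping ranges, then Cidec at 18.3 and Mgll at 2.37, each below all values of the gene before it. With LDL, Plin2 came first at 772 ± 111, above Plin3 at 500 ± 123 in every library, and Plin3 overlapped with Pnpla2 at 407 ± 37.6. Abhd6 at 222 ± 24.7 now stood above Abhd5 at 92.8 ± 16.6 without overlap. Cidec, Lipe, Hilpda, Mgll and G0s2, from 61.5 down to 30.5, each overlapped with the next. These levels depend on the length used: per kilobase of all annotated exons of a gene together, Plin3 led under both treatments (315 with PBS and 271 with LDL) and Plin2 was in place 3 (91.8 and 206), after Pnpla2. The change of the ratio of Plin2 to Plin3 with LDL, 2.65-fold between the group means, does not depend on it.

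**Figure D4:**
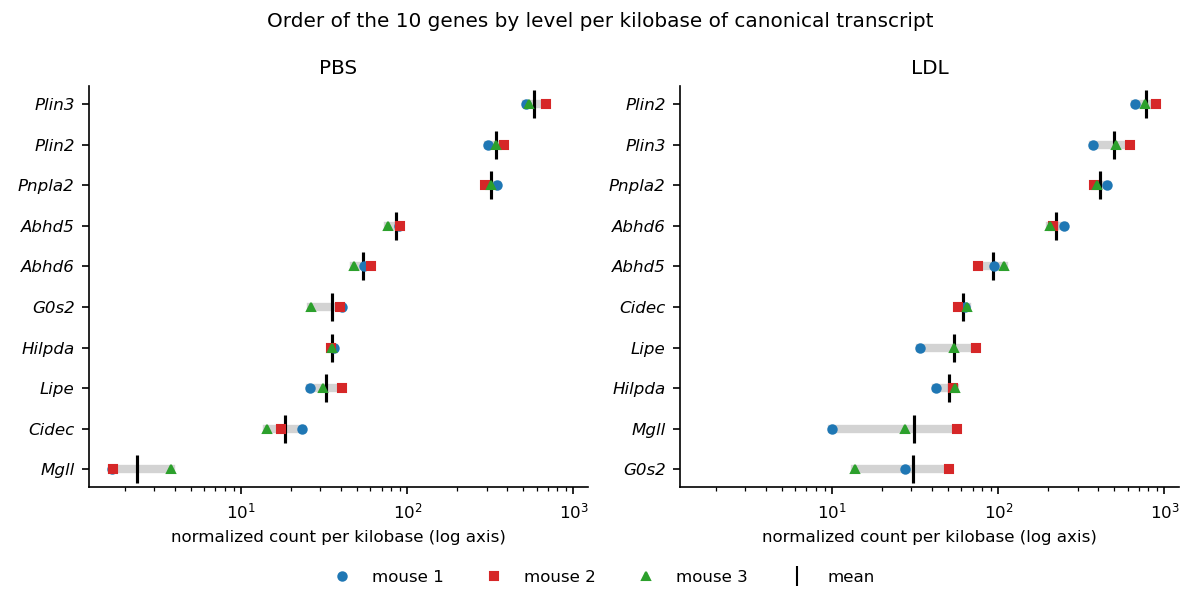
Normalized counts per kilobase of canonical transcript (horizontal log axes) of the 10 genes, ordered from the highest mean at the top, with PBS on the left and LDL on the right. Points are mice, grey bars the range and black ticks the mean of 3. Plin3 heads the PBS panel at a mean of 582 and Plin2 the LDL panel at 772, and Mgll moves from 2.37 to 31.2.

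Most of the remaining genes of the droplet were not called, and at an unadjusted p more were higher than lower. Of 31 other lipid droplet and lipase genes listed, 30 were found and 25 tested, of which 2 were called higher and 0 lower by limma without the block (10 higher and 2 lower at an unadjusted p under 0.05, 4 and 0 by DESeq2, 2 and 0 by edgeR), and 4 higher and 1 lower with the block. Over all genes tested, 0.878% were called higher and 0.395% lower without the block, and 5.68% and 3.46% with it. At an unadjusted p under 0.05 the shares were 9.96% and 9.73%. LDL values lay above all PBS values in 11 of the 25 and below them in 1, beside 11.9% and 12.3% of all genes. The median log2 fold change of the 25 was 0.10. Hsd17b11, a droplet-associated dehydrogenase, rose from 1000 ± 103 to 4219 ± 606 (SD, n = 3, log2 fold change 2.07 ± 0.13 SE, adjusted p = 0.000897). Lipa, the acid lipase that hydrolyzes lipoprotein cholesteryl esters in lysosomes, rose from 280 ± 34.1 to 916 ± 49.8 (1.71 ± 0.12, adjusted p = 0.00137). Cidea, the closest relative of Cidec here, and Ces1f, a carboxylesterase, were called higher only with the block (3.44, adjusted p = 0.0039, and 0.80, adjusted p = 0.000968, against 0.0872 and 0.134 without it). Hsd17b13, a droplet protein with the highest mean count of the list (2963), was called lower with the block only (-1.09, adjusted p = 0.0157, against 0.203). With the block and mouse 3 left out, Hsd17b11, Lipa and Ces1f were called (adjusted p = 0.0045, 0.0101 and 0.0481) and Cidea and Hsd17b13 were not (0.0640 and 0.193). Outside the rule for named genes, and looked at because they complete the family, the perilipins Plin1, Plin4 and Plin5 had mean counts of 1.91, 57.3 and 7.44 with PBS and 2.28, 62.8 and 13.1 with LDL, and neither Plin4 nor Plin5 was called in either fit while Plin1 was under the filter.

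Few of the genes that make and bud the stored lipid were called. Of 22 listed, 20 were tested and none was called by limma without the block (5 higher and 3 lower at an unadjusted p under 0.05, 2 and 0 by edgeR, 2 and 1 by DESeq2). Over all genes, 9.96% were higher and 9.73% lower at that unadjusted p. The median log2 fold change of the 20 was 0.11. The limma fit with the block called 1 of the 20 higher and 2 lower, beside 5.68% and 3.46% of all genes. With the block, Dgat2, which adds the last fatty acid to triglyceride, was called higher (0.78, adjusted p = 0.0129, against 0.0769 without it). Gpam, the mitochondrial enzyme that begins glycerolipid synthesis, and Lpin1, a phosphatidate phosphatase, were called lower with the block (-0.94, adjusted p = 0.000862, against 0.0550, and -0.63, adjusted p = 0.00514, against 0.167). With mouse 3 also left out, Gpam was called (adjusted p = 0.0404) and Dgat2 and Lpin1 were not (0.187 and 0.0896). Soat1, which esterifies cholesterol, had the highest mean count of the list at 7162 and was not called in either fit.

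Since Hilpda and the ACGTG core are tied to low oxygen, 20 hypoxia-inducible genes were set beside the members. Limma without the block called 2 higher and 0 lower (6 and 2 at an unadjusted p under 0.05, 2 and 0 by edgeR, 4 and 0 by DESeq2), and with the block 4 and 1. Over all genes, 0.878% were called higher and 0.395% lower without the block, and 5.68% and 3.46% with it. At an unadjusted p under 0.05 the shares were 9.96% and 9.73%. The median log2 fold change of the 20 was 0.18. Egln3, an oxygen-sensing hydroxylase, rose from 159 ± 39.8 to 527 ± 124 (SD, n = 3, log2 fold change 1.72 ± 0.22 SE, adjusted p = 0.0175), and Slc2a1, a glucose transporter, from 754 ± 45.3 to 1400.4 ± 225 (0.88 ± 0.13, adjusted p = 0.0269). P4ha2 (1.41) and Adm (1.18) were called higher and Ddit4 (-0.71) lower with the block only. With the block and mouse 3 left out, Egln3 was the only one of these 5 genes called (adjusted p = 0.0096), and Slc2a1, P4ha2, Adm and Ddit4 were not (0.0914, 0.195, 0.120 and 0.151). Ldha, the gene of the list with the highest mean count (11355), was not called in either fit.

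Of 10 transcription factors known to act on the members, none was called without the block by limma (1 higher and 4 lower at an unadjusted p under 0.05, none in either direction by edgeR, 1 higher and 1 lower by DESeq2). With the block, Ppard, a fatty acid receptor, was called higher (0.76, adjusted p = 0.00777, against 0.183 without it), and Nr1h3, an oxysterol receptor, and Tfeb, a regulator of lysosomal genes, were called lower (-0.75 and -0.59, adjusted p = 0.00329 and 0.0312, against 0.0770 and 0.154). With mouse 3 also left out, none of these 3 was called (adjusted p = 0.146, 0.0910 and 0.185). Hif1a, with the highest mean count at 4210, had a log2 fold change of 0.01 ± 0.10 (SE). The median log2 fold change of these 10 factors was 0.00. Over all genes, 9.96% were higher and 9.73% lower at an unadjusted p under 0.05, and 5.68% and 3.46% were called with the block. Leaving out single libraries moved the count called higher over these 4 lists, which was 4 in all, to between 2 and 10, the latter without the LDL library of mouse 2, and the count called lower, which was 0, to 11 without that same library. Over all genes, leaving out that library moved the counts called from 162 higher and 73 lower to 1179 and 1133.

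**Figure D5:**
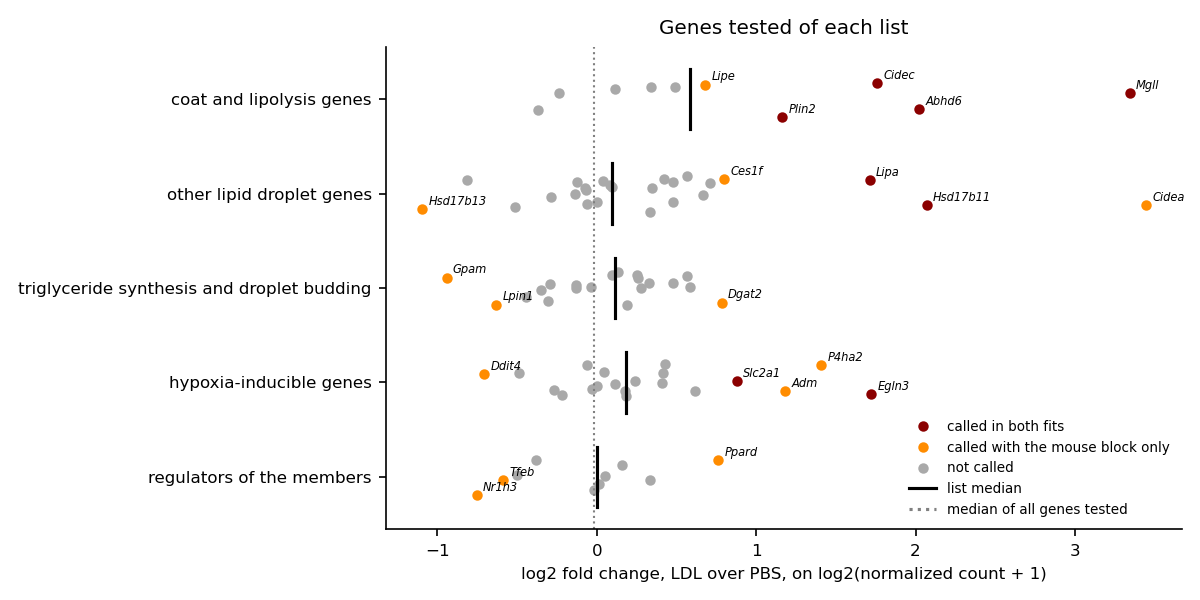
Log2 fold change of LDL over PBS (horizontal axis) for the tested genes of the set and of 4 wider lists (rows, scattered vertically only for legibility). Dark red marks genes called in both limma fits, orange those called only with the mouse as a block, grey those not called, black ticks list medians and the dotted line the median of all genes. The median of the 10 coat and lipolysis genes is 0.59 and those of the other lists are between 0.00 and 0.18.

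Beside these changes, markers of other cells and of enterocytes moved as follows. The 6 adipocyte markers summed to between 2.04 and 8.70 normalized counts with PBS and between 7.28 and 11.0 with LDL, with no more than 6 reads of any of them in a library, so the defining genes of that cell were at or near 0. The 6 macrophage markers summed to between 189 and 248 with PBS and between 225 and 371 with LDL, most of it Cd68 and Cd14, and the sum was higher with LDL in every mouse. Cd14 lay between 39.8 and 60.2 with PBS and between 79.1 and 159 with LDL, and was called higher with the block (log2 fold change 1.18, adjusted p = 0.00484, against 0.0962 without it and 0.0939 with the block and mouse 3 left out). Adgre1, the defining one, had no read with PBS and 5, 0 and 3 reads in the LDL libraries of mice 1 to 3. The 7 stromal markers summed to between 44.0 and 85.7 with PBS and between 30.9 and 86.6 with LDL. The 8 enterocyte markers summed to between 31284 and 56780 with PBS and between 46202 and 67911 with LDL, with mouse 2 highest under both, and 1 of the 8, Alpi, was called higher without the block. With the block 4 were called higher (Alpi, Apoa4, Apob and Fabp2) and 2 lower, and with mouse 3 also left out Alpi, Apoa4 and the 2 lower genes were called and Apob and Fabp2 were not (adjusted p = 0.177 and 0.0872). Log2 fold changes of the 8 ran from -1.80 to 2.13, with 4 of them higher and 3 lower in every mouse. The 7 epithelial markers summed to between 86029 and 89699 with PBS and between 96795 and 129069 with LDL, and limma called none of them without the block (4 higher and 0 lower at an unadjusted p under 0.05) and 2, Krt8 and Krt18, higher with it, of which Krt18 was called with mouse 3 also left out (adjusted p = 0.0484, and 0.175 for Krt8). The part of these shifts in the changes of the coat and lipolysis genes was not tested.

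For each gene called in either fit, the profile over the 6 libraries was compared with that of 11932 genes with a mean count of at least 100, by the root mean square difference of centred log2 values. Nearest to Plin2 were Papss2, Por and Cbr3, at 0.0921, 0.0997 and 0.103. Nearest to Abhd6 were Me1 (0.136), Hsd17b11 (0.187) and the processed pseudogene Gm7049 (0.199), and nearest to Cidec were the processed pseudogene Gm7329 (0.202), Camsap2 (0.204) and Me1 (0.229). Lipe lay closest to Gpd1 (0.0981), Ehhadh (0.109) and Slc25a45 (0.123). Mgll had no close neighbour on this measure, the nearest being Reg1 and Acacb at 0.475 and 0.613.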

How the data were processed

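RNA-seq of 6 libraries (LDL and PBS organoids of 3 mice) was used. Per the labels and the methods of the study, ribosomal RNA was removed, stranded libraries were sequenced from one end, reads were aligned to GRCm39 with STAR and counted with featureCounts. The deposited signal values are gene counts that the authors divided by DESeq2 size factors. Strand setting and annotation release are not given in the sources used here. Values were whole multiples of 1 read in each library (100% of values within 0.02 of a whole read), so reads were recovered, 22061545 to 31073360 per library. With 5 to 17 reads, as for Mgll with PBS, counting error alone is large. Of 55416 gene IDs, 54749 matched GENCODE, which supplied symbols and positions.

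The 18459 genes whose normalized counts averaged 10 or more over the libraries were fitted with limma 3.58.1 (R 4.3.3) on log2(value + 1) with a trend, two-sided, with Benjamini-Hochberg adjustment over all of them. Calls needed an adjusted p under 0.05 and more than 1.5-fold. A fold change on this scale understates the change of low genes. edgeR 4.0.16 and DESeq2 1.42.0 were run on the recovered reads. The scripts were tested on simulated data.

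Same-numbered libraries carry the same animal identifier in the labels. Their deviations from the treatment means correlated at 0.48, 0.42 and 0.46 for mice 1 to 3 and between -0.37 and -0.08 for different mice. Deviations from a mean of 3 libraries sum to 0. The negative values therefore follow on average from the positive ones and add no separate evidence. Given the labels and the positive values, the mouse was used as a block in a further fit, whose values are printed where they change a call.

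The members and lists were chosen with earlier results of these data known. Named genes were the 10 members, up to 5 called genes of each list by size of change, its gene with the highest mean count, and the 3 genes nearest in profile to each called member. Per-kilobase levels used canonical transcript lengths. Alternatives were other pseudocounts, filters, scalings, tools and left-out libraries. Some items that these rules would name are not reported here.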

Additional observations from a re-analysis of the deposited data

How the results depend on the processing

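Over 23 other ways of processing, Plin2, Cidec, Abhd6, Mgll, Lipe, Hilpda and Pnpla2 kept a positive log2 fold change, with values from 1.06 to 1.55 for Plin2, 1.56 to 2.14 for Cidec, 1.93 to 2.41 for Abhd6 and 2.59 to 3.99 for Mgll. The direction turned for Abhd5, to -0.0034 without the LDL library of mouse 3 and to -0.0799 without mouse 3, with the block or without it, and the values with single libraries left out ran from -0.0034 to 0.2577. For G0s2 they ran from -0.8203 without the LDL library of mouse 2 to 0.0921 without that of mouse 3. Scaling by the upper quartile of the genes with a read in each library shifted the median of all genes by 0.38 on the log2 scale, from -0.02 to 0.37, beside more genes with a read in the LDL library of mouse 1. Under it Plin3 stood at 0.1487 and G0s2 at 0.0074, both below that shift. An upper quartile over the genes tested, added after seeing the data, gave a median of 0.0018. Without a filter the median over 43039 genes was 0.10, a shift of 0.12. The split of calls over all genes was 162 higher and 73 lower, and 322 and 36 under the first upper-quartile scaling.

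Of the 10 genes, 4 were called higher, between 1 and 4 with single libraries left out, and 0 without mouse 3 (2 libraries against 2). Over all genes, leaving out single libraries gave between 18 and 1179 called higher and between 2 and 1133 lower. The lowest counts came without the LDL library of mouse 3 and the highest without that of mouse 2. Without mouse 3, no gene was called in either direction. With the replicate block 5 of the 10 were called higher. With the block and mouse 2 left out, 1 of the 10, G0s2, was called lower (-0.73, adjusted p = 0.0459), beside 1348 of all 18459 genes. Mgll fell just short of the threshold with a pseudocount of 5, a mean of at least 50 or quantile normalization (adjusted p = 0.0544, 0.0563 and 0.0601). Over the 4 wider lists the counts called higher and lower were 4 and 0. They were 10 and 6 with the replicate block, 13 and 5 with edgeR and the block, 11 and 2 with DESeq2, 11 and 6 with DESeq2 and the block, and 8 and 4, 15 and 9, and 4 and 1 with the block and mouse 1, 2 or 3 left out. Without a filter 3 were called lower, and 1 with quantile normalization or the added upper quartile. With single libraries left out the counts ranged from 2 to 10 and from 0 to 11, and without mouse 3 none was called higher. The cause of these differences was not tested.

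Over all genes, limma called 1048 higher and 639 lower with the block. The mouse pairing thus moves counts of calls by more than 1.5 times, while for the members it changed the call of Lipe only. With 5 to 17 reads of Mgll per PBS library, depth limits its fold change, and changes under 1.5-fold, such as that of Pnpla2, were not called by construction.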
